A study of Homo sapiens with 6 samples.

Results

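The genes described here are 40 DNA repair genes of homologous recombination, the Fanconi anemia pathway, mismatch repair and end joining. They were chosen by name from a list of these pathways among the 17901 genes with deposited log2 CPM values, of 62703 genes counted. The expression filter kept these same 17901 genes, so the choice itself fixed that every member passed it. A repair gene with low counts could not be a member. All 40 are protein-coding. They were measured by RNA-seq of poly(A) RNA in the human prostate cancer line 22Rv1. Of the 6 libraries, 3 came from cells given 25 pmol of a control siRNA pool without a target (siCtrl) and 3 from cells given 25 pmol of a pool against MED12 (siMED12), a subunit of the Mediator kinase module. The transfection followed 24 hours after seeding, and RNA was taken 3 days later. All libraries came from the same line, and each group rests on 1 pool, so an effect of the MED12 pool on other transcripts cannot be told apart from loss of MED12. The comparison asked which repair genes differed between siMED12 and siCtrl, pathway by pathway.

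A double-strand break is joined directly by the end joining proteins or is repaired from the sister chromatid by homologous recombination. In homologous recombination the MRE11, RAD50 and NBN proteins sense the break, nucleases trim the ends, and BRCA1, PALB2 and BRCA2, the XRCC2 and XRCC3 complexes and the RAD54 proteins help the broken end copy its template. Fanconi proteins remove DNA crosslinks and pass the lesion to the same machinery, and mismatch repair corrects errors left by replication. Genes of these pathways are best known in prostate cancer because inherited or acquired defects in BRCA2, ATM and their partners occur in advanced disease and are the basis for treatment with PARP inhibitors. Many of the genes are transcribed most strongly as cells enter S phase, when E2F factors are active.

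The libraries held between 16136699 and 17012788 counts. MED12 was at 67.8, 77.7 and 72.6 CPM (counts scaled to library size by TMM) in siCtrl replicates 1 to 3, against 23.9, 15.0 and 30.1 CPM in siMED12, a log2 fold change of -1.66 (adjusted p = 0.0314, edgeR quasi-likelihood test). Without a block for replicate number, 27 of the 17901 genes passed an adjusted p of 0.05 as higher and 74 as lower, and with the block 3058 and 2908 did. Of the prostate luminal markers, KRT8 was at 566 to 934 CPM and HOXB13 at 214 to 365 CPM. Among markers of other cell types, CD3E was at 0 in every library, PTPRC, PECAM1 and LYZ stayed at or below 0.253 CPM, VIM lay between 8.38 and 11.8 CPM, and COL1A1 between 14.9 and 27.4 CPM. Libraries of the same replicate number deviated together, and mitochondrially encoded genes took 4.43% to 4.79% of the counts in replicate 1, 6.03% to 6.31% in replicate 2 and 10.0% to 10.1% in replicate 3.

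Promoter windows of the members, 250 bases before to 50 bases after an annotated start (RefSeq, GRCh38.p14), were searched on both strands for 4 forms of the E2F site (TTTGGCGC, TTTCCCGC, TTTGCCGC and TTTCGCGC), because S phase genes often carry one. Windows existed for 35 of the 40 members, 50 windows in all, and RAD54B, NBN, FANCI, XRCC5 and PRKDC were without one. A form was found in 10 of the 50 windows (20%), against 3.31% of all 35116 windows and 4.1% of the 22198 windows of protein-coding genes. The 10 windows belong to EXO1, FANCA, FANCC, FANCD2, MSH3, MSH6, PMS2, XRCC2 and XRCC6. The stretches below are those of the 5 members of that set that were lower in siMED12 with the replicate block, and of MSH3, which had the largest positive fold change of the 40. Each reads 5′ to 3′ on the gene's strand, with the E2F form, or its reverse complement, in capitals. In the MSH3 stretch a form and the reverse complement of another overlap.
EXO1: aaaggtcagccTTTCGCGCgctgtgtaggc
FANCD2: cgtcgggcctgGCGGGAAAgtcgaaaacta
MSH6: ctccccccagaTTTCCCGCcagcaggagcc
XRCC2: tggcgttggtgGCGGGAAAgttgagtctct
XRCC6: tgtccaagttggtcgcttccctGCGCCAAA
MSH3: gcgcggtcaagTTTGGCGCGAAAttgtggc
The EXO1 stretch lies at chr1:241848197-241848226 on the plus strand, that of FANCD2 at chr3:10026424-10026453 on the plus strand and that of MSH6 at chr2:47783137-47783166 on the plus strand. The XRCC2 stretch lies at chr7:152676102-152676131 on the minus strand, that of XRCC6 at chr22:41621315-41621344 on the plus strand and that of MSH3 at chr5:80654534-80654563 on the plus strand. The letters were about as frequent in windows of members that were lower (5 of 24, 20.8%) as in windows of the others (5 of 26, 19.2%). The 24 windows belong to 15 members and the 26 to 20, so some members count in more than 1 window. Counts of windows are therefore not counts of separate genes. The CCAAT box (CCAAT) was in 13 of the 24 windows of lower members and 8 of the 26 others, against 34.6% of all windows. The E-box CACGTG was in 0 of 24 and 3 of 26, against 7.26% of all, and the CHR element TTTGAA in 1 of 24 and 2 of 26, against 15.2% of all. None of these motifs contains another, and a match describes the letters only.

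The repair genes were on the whole slightly lower in siMED12, by less than the spread between libraries of a group for most of them. The median log2 fold change over the 40 was -0.13 both without and with the replicate block, beside a median of 0.02 over all genes tested. In the 3 pairs of libraries with the same replicate number the medians were -0.08, -0.14 and -0.16. Without the block, 0 members passed an adjusted p of 0.05 as higher and 0 as lower, where 0.151% and 0.413% of all genes did. At an unadjusted p below 0.05 the edgeR quasi-likelihood test without the block gave 0 higher and 3 lower members, namely RAD51C, RAD54L and CHEK2, against 7.65% of all genes higher and 7.93% lower. DESeq2 without the block called 0 members in either direction, against 2.69% of all genes lower and 1.78% higher. With the replicate number as a block, 1 member was higher and 17 were lower. The lower calls are 42.5% of the members, beside 16.2% of all genes and 21.6% of the 11055 protein-coding genes whose mean CPM was at least that of the least abundant member. The single higher call, BARD1, compares with 17.1% of all genes and 23% of those protein-coding genes. Without the third pair the lower calls fell to 11, all of them among the 17. The share of all genes in that fit is not given here, so the fall cannot be read as particular to the members.

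**Figure D1:**
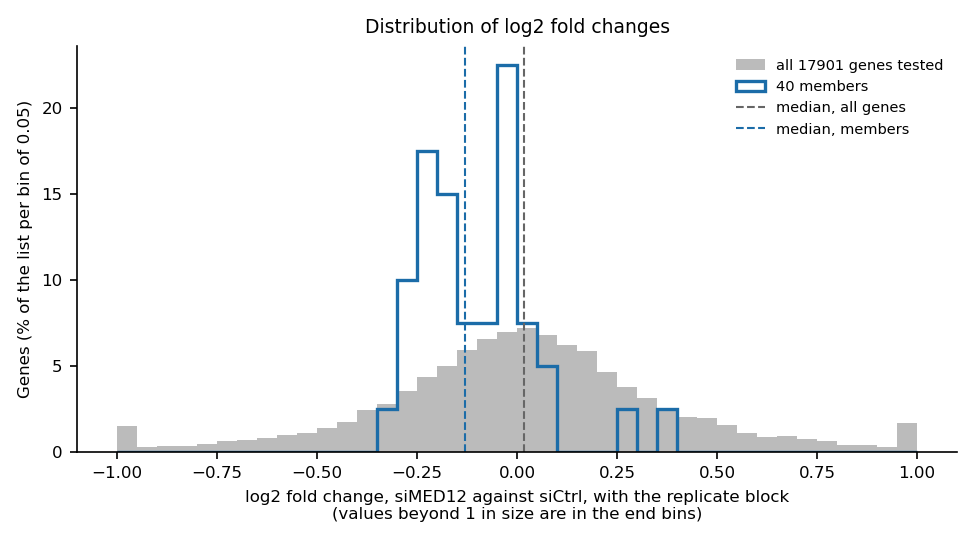
Distribution of log2 fold changes with the replicate block (x axis, siMED12 against siCtrl) as a percent of each list per bin (y axis), for all 17901 genes tested (grey) and the 40 members (blue outline). The dashed lines mark the medians, -0.13 for the members and 0.02 for all genes, and the members lie between -0.33 and 0.37.

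All 17 lower members were lower in each of the 3 pairs. The blocked test rests on these same differences, so this adds no separate support. With the uncalled ones 24 members were lower in each pair, 60% of the list, against 27% of all genes and 31.5% of the protein-coding genes at or above the lowest member mean. Higher in all 3 pairs were 3 members, BARD1, ATM and MSH3, beside 30.6% of all genes. The called decreases were small: they ranged from -0.12 to -0.33 on the log2 scale, or 8.13% to 20.6% less. Groups did not overlap for only 3 of the 17, RAD51C, RAD54L and CHEK2, and for FANCB, which was not called. These 4 members compare with 10.9% of all genes that had every siMED12 library below every siCtrl library. For 33 of the 40 members the ratio of the highest to the lowest siCtrl library exceeded the fold change with the block. In bulk RNA, fewer cells that express a gene and less RNA per cell cannot be told apart.

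**Figure D2:**
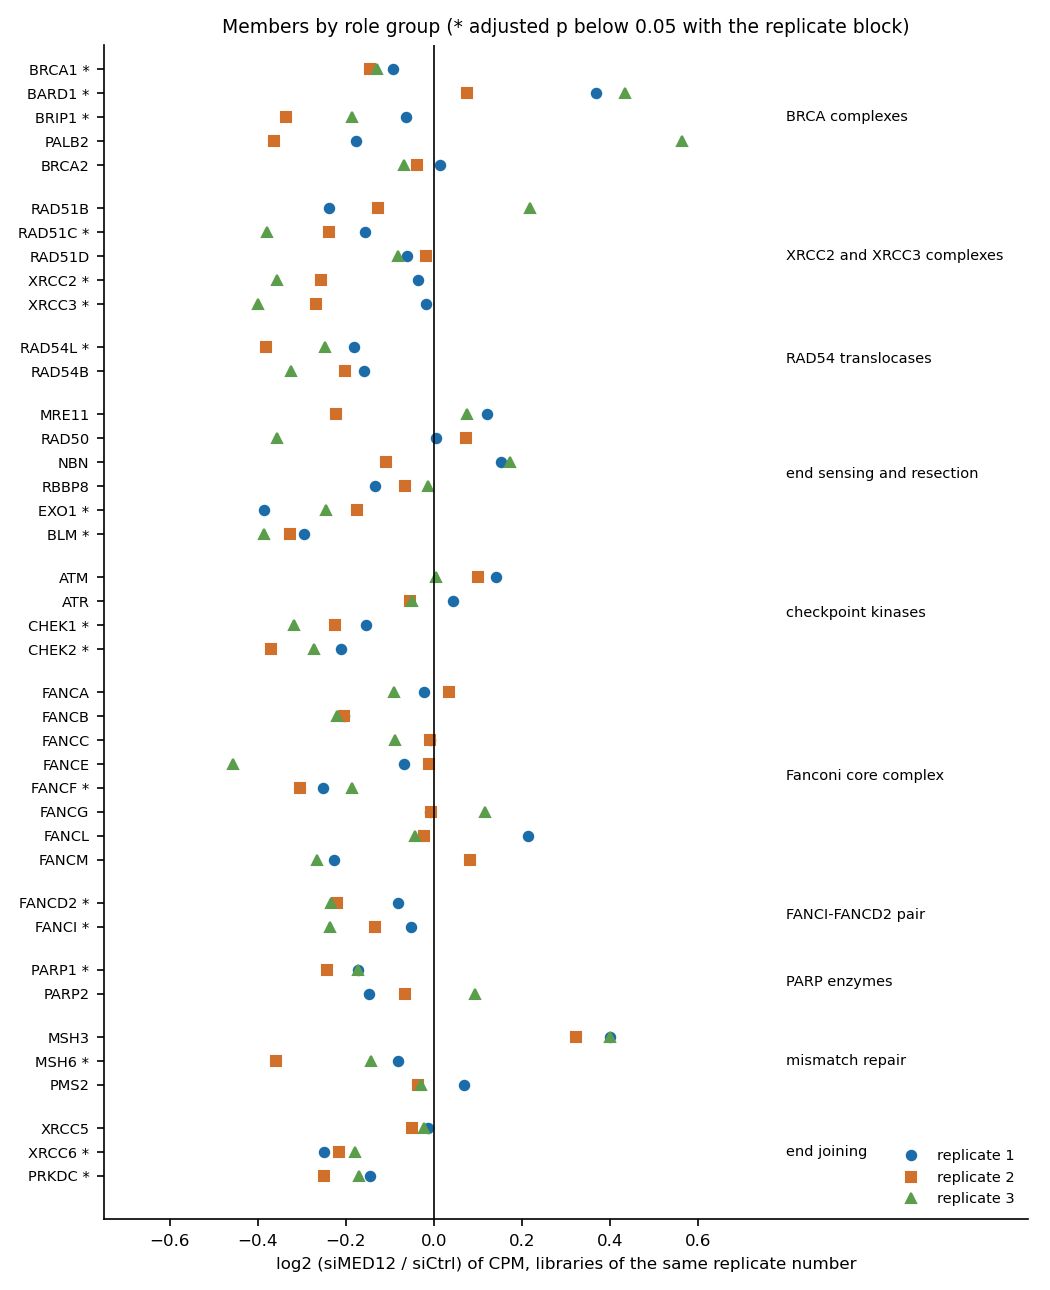
Each row is a member and each symbol is the log2 ratio of siMED12 to siCtrl CPM in 1 pair of libraries with the same replicate number (x axis), ordered by role group. An asterisk marks an adjusted p below 0.05 with the replicate block. Most symbols lie left of 0, and BARD1, ATM and MSH3 are the members with all 3 symbols right of it.

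Among the BRCA complexes, 2 of 5 genes were lower and 1 was higher with the block, and the median log2 fold change was -0.03. When libraries were scaled by size alone it turned to 0.01, while the median of all genes moved from 0.02 to 0.06. BARD1 (ENSG00000138376.11, chr2:214725646-214809683, minus strand, GRCh38), the RING partner that BRCA1 needs as a ubiquitin ligase, was at 28.1, 20.8 and 14.6 CPM in siCtrl against 36.2, 21.9 and 19.8 CPM in siMED12. Every siMED12 library lay above the siCtrl library of its number, while the ranges of the groups overlapped across replicate numbers. BARD1 rose by 0.29 ± 0.09 (log2, SE, n = 3; adjusted p = 0.0109 with the block and 0.705 without it, edgeR). BARD1 fell below the threshold with the correction for GC content and length (0.17, adjusted p = 0.131), without replicate pair 1, without replicate pair 3 and in the DESeq2 Wald test with the block. BRCA1 itself was at 164, 166 and 140 CPM in siCtrl against 154, 150 and 128 CPM in siMED12. It fell by 0.12 on the log2 scale (adjusted p = 0.0324 with the block, edgeR), the smallest called change. The helicase BRIP1, which binds BRCA1, fell by 0.19 on the log2 scale (adjusted p = 0.0294 with the block, edgeR). Both BRCA1 and BRIP1 missed the threshold without replicate pair 3 and when libraries were scaled by size alone and in the DESeq2 Wald test with the block, and BRIP1 also without pair 2. PALB2, the bridge between BRCA1 and BRCA2, had a log2 fold change of -0.02 ± 0.15 (SE), and BRCA2 one of -0.03 ± 0.07 (SE), neither past the threshold. PALB2 was lower in replicates 1 and 2 and higher in replicate 3.

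All 5 genes of the XRCC2 and XRCC3 complexes, which assist homologous recombination, had negative log2 fold changes, and 3 passed the test with the block. RAD51C (ENSG00000108384.16, chr17:58692573-58735611, plus strand, GRCh38), shared by both complexes, was at 39.4, 41.6 and 42.9 CPM in siCtrl against 35.4, 35.3 and 32.9 CPM in siMED12. No siMED12 library reached the lowest siCtrl library. RAD51C fell by 0.26 on the log2 scale (SE 0.07, adjusted p = 0.00522 with the block and 0.277 without, edgeR). XRCC3 (ENSG00000126215.14, chr14:103697609-103715504, minus strand, GRCh38), the partner of RAD51C in the smaller complex, was at 52.0, 61.3 and 73.8 CPM in siCtrl against 51.4, 50.9 and 56.0 CPM in siMED12. The difference was near 0 in replicate 1 and largest in replicate 3, where siCtrl was highest. XRCC3 fell by 0.23 on the log2 scale (adjusted p = 0.00507 with the block, edgeR). XRCC2 fell by 0.22 on the log2 scale (adjusted p = 0.00456 with the block, edgeR). RAD51B (-0.05 ± 0.17, SE) and RAD51D (-0.05 ± 0.08, SE) did not pass the test. Without the third pair RAD51C, XRCC2 and XRCC3 all missed the threshold.

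The RAD54 proteins are DNA translocases that act on DNA during homologous recombination. RAD54L (ENSG00000085999.13, chr1:46246461-46278480, plus strand, GRCh38) was at 47.1, 44.3 and 45.1 CPM in siCtrl against 41.5, 34.0 and 38.0 CPM in siMED12. The 3 siMED12 values lay below all siCtrl values. RAD54L fell by 0.27 on the log2 scale (SE 0.07, adjusted p = 0.00242 with the block and 0.306 without, edgeR). RAD54B, at 8.76 to 12.8 CPM, had a log2 fold change of -0.23 ± 0.13 (SE, adjusted p = 0.18 with the block, edgeR).

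Of the 6 end sensing and resection genes, 2 were lower with the block, where 16.2% of all genes were. Both act late, in resection and in the dissolution of joint molecules. The 3 that sense the break did not pass the test, and the difference between the steps was not tested. With the correction for GC content and length all 6 had negative log2 fold changes. RBBP8 was then 1 of 3 lower genes, where 19% of all genes were lower. BLM (ENSG00000197299.13, chr15:90717346-90816166, plus strand, GRCh38), the helicase mutated in Bloom syndrome, was at 37.6, 29.9 and 27.6 CPM in siCtrl against 30.7, 23.8 and 21.1 CPM in siMED12. Each pair fell, and the highest siMED12 value exceeded the lower siCtrl values. BLM had the largest fall of the 40, 0.33 on the log2 scale or 20.6% (SE 0.08, adjusted p = 0.00108 with the block and 0.437 without, edgeR). EXO1 (ENSG00000174371.17, chr1:241847967-241895148, plus strand, GRCh38), the exonuclease that extends resection and also acts in mismatch repair, was at 64.0, 47.6 and 42.1 CPM in siCtrl against 48.9, 42.2 and 35.5 CPM in siMED12. Replicate 1 was the highest library of both groups, and the ranges overlapped. EXO1 fell by 0.27 on the log2 scale (adjusted p = 0.00145 with the block and 0.525 without, edgeR), and missed the threshold without replicate pair 1. Among the members of the sensing complex, MRE11 changed by -0.00 ± 0.08, RAD50 by -0.08 ± 0.13 and NBN by 0.07 ± 0.06 (log2, SE). RBBP8, known as CtIP, starts resection together with them and had a log2 fold change of -0.07 ± 0.05 (SE).

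The apical kinases ATM, which answers to double-strand breaks, and ATR, which answers to single-stranded DNA, had log2 fold changes of 0.08 ± 0.05 and -0.02 ± 0.06 (SE), and neither passed the test, whereas the effector kinases that they activate were both lower with the block. CHEK2 (ENSG00000183765.23, chr22:28687743-28742422, minus strand, GRCh38) was at 36.7, 40.3 and 40.6 CPM in siCtrl against 31.7, 31.2 and 33.6 CPM in siMED12. Its groups did not overlap. CHEK2 fell by 0.28 on the log2 scale or 17.9% (SE 0.07, adjusted p = 0.00236 with the block and 0.247 without, edgeR), the lowest unblocked adjusted p of the 40. CHEK1 (ENSG00000149554.14, chr11:125625163-125676255, plus strand, GRCh38) was at 67.9, 69.1 and 58.1 CPM in siCtrl against 61.1, 59.2 and 46.6 CPM in siMED12. Replicate 3 was the lowest library in both groups, so that the ranges overlapped. CHEK1 fell by 0.23 on the log2 scale (SE 0.06, adjusted p = 0.00262 with the block, edgeR). The difference between the apical and the effector kinases was not tested.

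In the Fanconi anemia pathway a core complex attaches ubiquitin to the FANCI-FANCD2 pair, which then clamps onto DNA. Both proteins of the pair had lower transcripts with the block. So did 1 of the 8 core complex genes, where 16.2% of all genes were lower. With the correction for GC content and length both of the pair and 3 of the 8 core genes were lower, where 19% of all genes were. The difference between the pair and the core complex was not tested. FANCD2 was at 127, 142 and 173 CPM in siCtrl against 120, 122 and 147 CPM in siMED12. FANCI was at 215, 208 and 196 CPM in siCtrl against 207, 190 and 166 CPM in siMED12. Both overlapped between groups and fell in each pair, FANCD2 by 0.18 (adjusted p = 0.00265) and FANCI by 0.14 (adjusted p = 0.0121) on the log2 scale with the block in edgeR. FANCI missed the threshold without replicate pair 3 and with scaling by size alone. FANCF (ENSG00000183161.6, chr11:22622533-22625823, minus strand, GRCh38), an adaptor of the core complex, was at 45.0, 32.2 and 28.4 CPM in siCtrl against 37.8, 26.1 and 25.0 CPM in siMED12. Replicate 1 stood highest in both groups. FANCF fell by 0.25 on the log2 scale (SE 0.08, adjusted p = 0.0102 with the block, edgeR), and missed the threshold without replicate pair 1 and in the DESeq2 Wald test with the block. The other core genes did not pass. FANCB had a log2 fold change of -0.21 ± 0.11 and FANCE one of -0.18 ± 0.11 (SE), at means of 15.6 and 14.9 CPM. The values were -0.14 for the translocase FANCM, -0.03 for FANCA and FANCC and 0.04 for FANCG. FANCL, the subunit that carries the ubiquitin ligase activity, was at 0.05.

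PARP1, the abundant sensor of DNA strand breaks and the main target of PARP inhibitors, was at 837, 905 and 704 CPM in siCtrl against 743, 764 and 625 CPM in siMED12. It was lower in each pair, and the ranges overlapped because replicate 3 was low in both groups. PARP1 fell by 0.20 on the log2 scale or 12.7% (SE 0.04, adjusted p = 3.58e-05 with the block and 0.5 without, edgeR). Its relative PARP2 had a log2 fold change of -0.04 ± 0.06 (SE) and was higher in the third pair only.

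The 3 mismatch repair genes went different ways, with a median log2 fold change of 0.00, so that no direction can be given for the group. MSH6, whose protein recognises single-base mismatches, was at 98.8, 99.4 and 78.1 CPM in siCtrl against 93.4, 77.5 and 70.7 CPM in siMED12. MSH6 fell by 0.19 on the log2 scale (SE 0.06, adjusted p = 0.00585 with the block, edgeR) and missed the threshold without replicate pair 2. MSH3 (ENSG00000113318.11, chr5:80654652-80876815, plus strand, GRCh38), whose protein recognises larger loops, was the least abundant member, at 4.82, 4.11 and 3.84 CPM in siCtrl against 6.36, 5.15 and 5.07 CPM in siMED12. All siMED12 libraries were above all siCtrl libraries, which was so for 11.2% of all genes. Its log2 fold change of 0.37 ± 0.18 (SE) was the largest positive value of the 40 and did not pass the test (adjusted p = 0.112 with the block and 0.462 without, edgeR). PMS2, part of the endonuclease that follows recognition, had a log2 fold change of 0.00 ± 0.06 (SE). For PMS2, 31.8% of its 50-base stretches also occur in an unnamed gene (ENSG00000290835) and 13.8% in PMS2CL, so its counts are uncertain.

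Of the end joining genes, XRCC6 and XRCC5 encode the Ku70 and Ku80 proteins that hold a broken end, and PRKDC encodes the kinase they recruit. XRCC6 was at 549, 593 and 498 CPM in siCtrl against 461, 511 and 440 CPM in siMED12. PRKDC was at 761, 862 and 632 CPM in siCtrl against 687, 725 and 562 CPM in siMED12. Both fell in each pair, with overlapping ranges. XRCC6 fell by 0.21 (SE 0.04, adjusted p = 1.49e-05) and PRKDC by 0.19 (SE 0.04, adjusted p = 7.72e-05) on the log2 scale with the block in edgeR, against adjusted p = 0.354 and 0.586 without it. XRCC5, the obligate partner of XRCC6, was at 438, 479 and 405 CPM in siCtrl against 434, 463 and 398 CPM in siMED12, a log2 fold change of -0.03 ± 0.04 (SE) that did not pass the test. The difference between the Ku subunits was not tested.

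**Figure D3:**
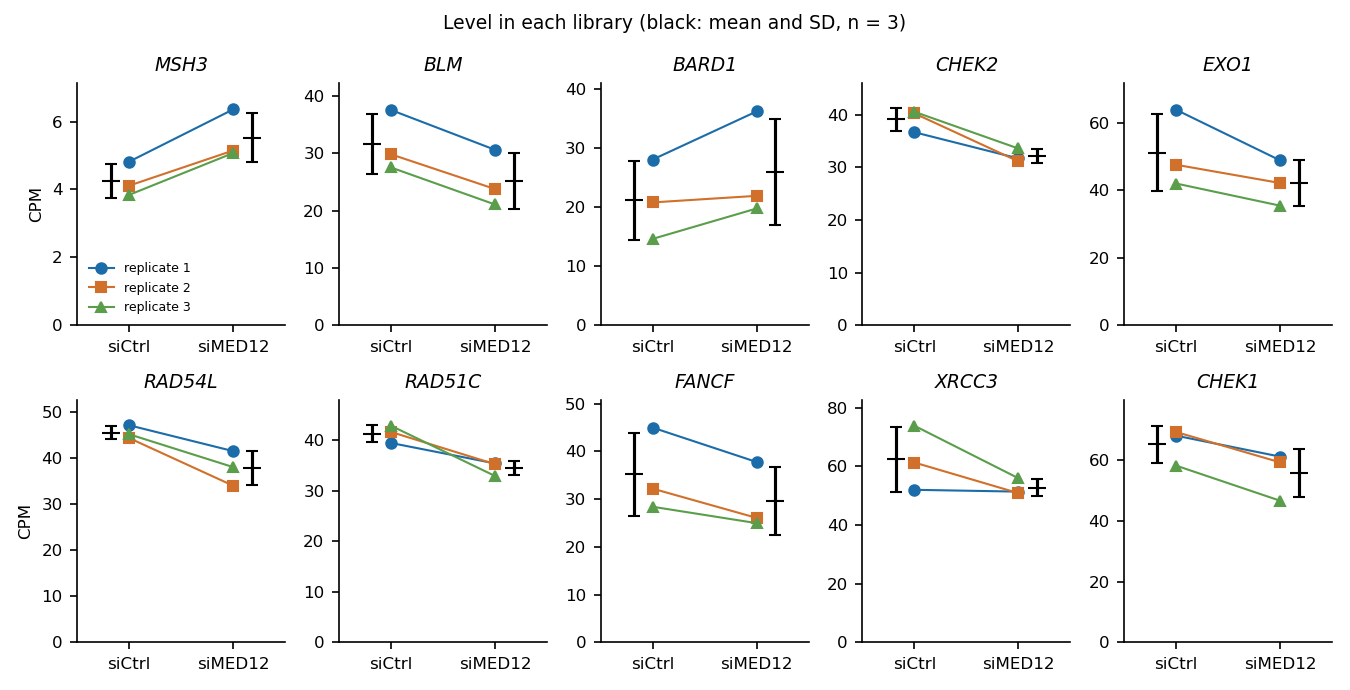
Level in CPM (y axis, from 0) in each siCtrl and siMED12 library for the 10 members with the largest absolute log2 fold change with the replicate block. Lines join libraries of the same replicate number, and black marks give the mean and SD (n = 3). MSH3 and BARD1 slope upward and the other 8 slope downward in every replicate, and replicate 1 is the highest library of both groups for MSH3, BLM, BARD1, EXO1, RAD54L and FANCF.

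Levels of the members in siCtrl, taken per kilobase of the canonical transcript so that genes can be compared, spanned a wide range. XRCC6 (258 ± 22.5 CPM per kb, SD, n = 3), PARP1 (205 ± 25.8 CPM per kb) and XRCC5 (130 ± 11.0 CPM per kb) were the most abundant. PRKDC followed at 55.8 ± 8.56 CPM per kb, and FANCI, at 43.6 ± 2.05 CPM per kb, was the most abundant Fanconi gene. BRCA1 stood at 22.1 ± 2.09 CPM per kb, well above its partners BRIP1 (5.78 ± 0.396), BARD1 (3.87 ± 1.23), BRCA2 (3.01 ± 0.773) and PALB2 (2.40 ± 1.05 CPM per kb). At the low end were RAD50, at 1.45 ± 0.0820 CPM per kb and with most of its sequence shared with an overlapping gene, and MSH3, at 0.958 ± 0.114 CPM per kb. RAD51D was at 2.72 ± 0.336 CPM per kb over a canonical transcript annotated at 9966 bases.

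**Figure D4:**
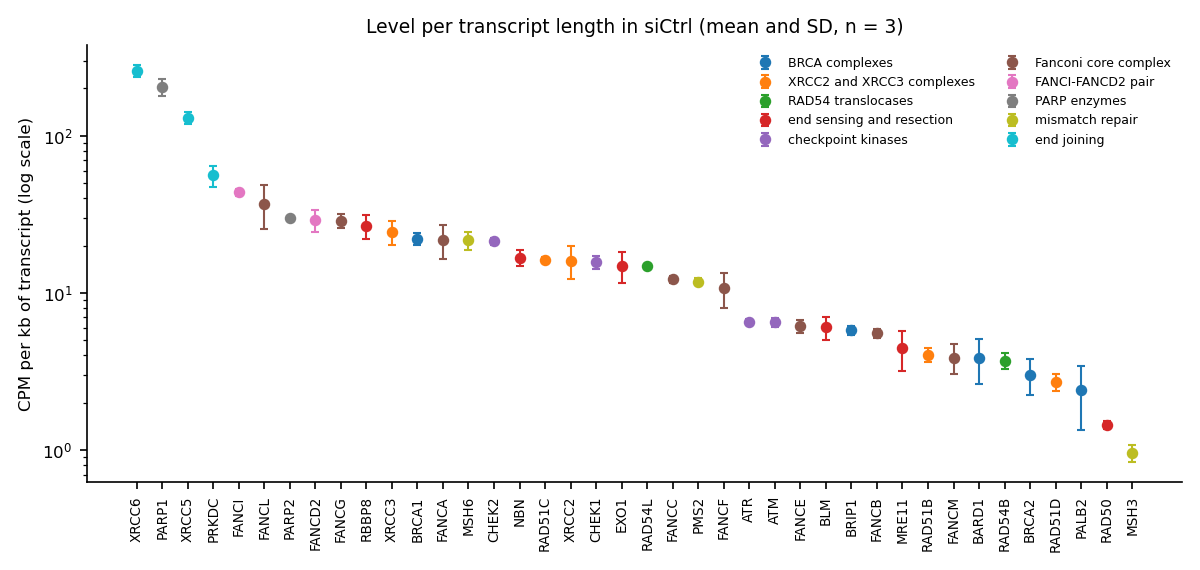
Level in siCtrl in CPM per kilobase of canonical transcript (y axis, log scale; mean and SD, n = 3) for the 40 members in order, coloured by role group. The end joining genes and PARP1 fill the first 4 places, and MSH3 is last at 0.958.

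Much of the spread within a group followed the replicate number, which siCtrl and siMED12 share. Replicate 1 was the highest library of both groups for 13 members, replicate 2 for 8 and replicate 3 for 9. PALB2 showed the widest siCtrl range, from 14.0 CPM in replicate 1 through 9.17 to 5.67 CPM in replicate 3, a ratio of 2.48. In siMED12 PALB2 was at 12.4, 7.13 and 8.39 CPM. BRCA2 was likewise highest in replicate 1, at 46.5, 32.4 and 29.0 CPM in siCtrl against 46.9, 31.6 and 27.7 CPM in siMED12. FANCL was highest in replicate 3, at 50.5, 50.2 and 83.3 CPM in siCtrl against 58.6, 49.3 and 80.8 CPM in siMED12. MRE11 (24.3, 26.8 and 40.4 CPM in siCtrl) and FANCA (99.3, 104 and 152 CPM in siCtrl) were also highest in replicate 3. For these 5 genes the ratio of highest to lowest siCtrl library lay between 1.53 and 2.48, while their log2 fold changes between groups lay within 0.05 of 0. What differed between the replicate numbers is not given in the labels.

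The members have longer transcripts with a lower GC content than most genes. Their median transcript length was 4354 bases and their median GC content 42.4%, against 3494 bases and 47.9% for the protein-coding genes at or above the lowest member mean. When GC content and length were corrected for in the blocked fit, the median of the members moved from -0.13 to -0.21, while that of all genes moved from 0.02 to -0.01. The corrected fit called 0 members higher and 23 lower, against 19% of all genes lower and 26.2% of the protein-coding genes at or above the lowest member mean. It retained the 17 lower members and added BRCA2, RBBP8, ATR, FANCB, FANCM and XRCC5. BRCA2 moved from -0.03 to -0.20 (adjusted p = 0.0285) and ATR from -0.02 to -0.16 (adjusted p = 0.0411, edgeR with the block and the correction). The shift by the correction ranged from -0.18 to 0.05 on the log2 scale, with a median of -0.08.

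**Figure D5:**
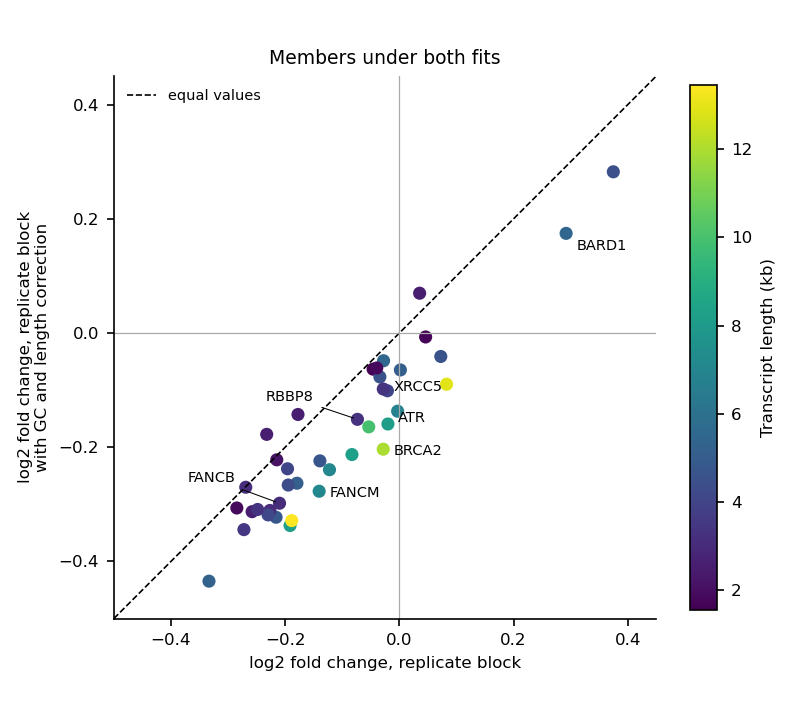
Log2 fold change of each member with the replicate block (x axis) and with the block and the correction for GC content and transcript length (y axis), coloured by transcript length in kilobases. Members below the dashed line have a lower value after the correction, and the 7 named members change their side of the threshold.

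Several members share sequence or exons with other genes, and the use of strand in counting is not known, so reads from such overlaps cannot be told apart. For RAD50, 90.9% of the 50-base stretches are shared with an overlapping gene on the same strand (ENSG00000283782), and for RAD54B 65.0% with FSBP. On the opposite strand FANCL shares 25.4% with VRK2, XRCC3 shares 23.7% with KLC1, FANCA shares 22.4% with ZNF276 and RAD54L shares 20.4% with LRRC41. CHEK1 shares 17.2% with an antisense gene (ENSG00000288907). XRCC6 shares 20.0% with the pseudogene XRCC6P2, FANCD2 shares 6.02% with FANCD2P2, and CHEK2 shares at most 4.29% with any of its pseudogenes. On the opposite strand MSH6 shares 9.2% with FBXO11, FANCI 8.2% with POLG, FANCF 8.2% with GAS2 and BLM 7.6% with ENSG00000287061. The calls on XRCC3, RAD54L, CHEK1, XRCC6, MSH6, FANCI, FANCF, BLM, FANCD2 and CHEK2 are therefore uncertain to that extent. So are the levels of RAD50 and RAD54B.

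Beyond the members, 123 other genes of the same and neighbouring repair pathways were examined, of which 122 were tested. Without the block 0 were higher and 0 lower in edgeR (3 higher and 11 lower at an unadjusted p below 0.05, and 3 lower with DESeq2), and with the block 12 were higher and 22 lower, where 17.1% of all genes were higher and 16.2% lower. The lower count is thus near the share of all genes. It became 20, beside 18 higher, when libraries were scaled by size alone, which moved the median of all genes to 0.06. With the correction for GC content and length it became 35, beside 9 higher, where 19% of all genes were lower and 14.1% higher. Without the block 7.65% of all genes were higher and 7.93% lower at an unadjusted p below 0.05 in edgeR. With DESeq2 2.69% were lower. In the list of other mismatch repair genes, which holds the clamp, its loader and the polymerase that resynthesises the strand, 7 of 14 were lower and 0 higher, with a median of -0.15. PCNA, the sliding clamp, was at 289, 318 and 287 CPM in siCtrl against 204, 214 and 216 CPM in siMED12, with no overlap. It fell by 0.50 on the log2 scale (adjusted p = 2.4e-12 with the block and 0.0515 without, edgeR). The other homologous recombination and crosslink repair genes counted 5 lower and 4 higher of 48, among them CLSPN, the adaptor through which ATR activates CHEK1, which fell by 0.30 on the log2 scale (adjusted p = 3.45e-05 with the block, edgeR). The higher ones included SLX4 (0.29), the endonuclease scaffold, ERCC4 (0.32), MCM9 (0.33) and ABRAXAS1 (0.40), all log2 fold changes past the threshold with the block. ERCC4 and ABRAXAS1 missed it with the correction for GC content and length (adjusted p = 0.104 and 0.164, edgeR).

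Base excision repair had 5 of 22 genes lower and 1 higher with the block, where 16.2% of all genes were lower and 17.1% higher. The glycosylases NTHL1, NEIL2 and UNG fell by 0.67, 0.63 and 0.42 on the log2 scale, while the glycosylase NEIL1 rose by 0.37. Among the other end joining genes 3 of 13 were lower and 2 higher. Among the nucleotide excision repair genes 2 of 21 tested were lower and 3 higher, beside the same shares of all genes. With the correction for GC content and length, base excision repair had 6 lower and 3 higher, other end joining 1 lower and 0 higher, and nucleotide excision repair 6 lower and 2 higher. In that fit 19% of all genes were lower and 14.1% higher. CDK12 and CDK13, which with cyclin K sustain transcription of long genes including many repair genes, had log2 fold changes of 0.09 ± 0.05 and 0.18 ± 0.05 (SE). CDK13 (adjusted p = 0.00517) and CDK9 (0.19, adjusted p = 0.0154) were higher with the block in edgeR, and CDK12 (adjusted p = 0.219) and CCNK (-0.13, adjusted p = 0.0851) did not pass. With the correction CDK13 missed the threshold (0.05, adjusted p = 0.47) and CCNK passed it as lower (-0.15, adjusted p = 0.0387, edgeR with the block).

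In the S phase list, without members, 26 of 39 genes were lower and 0 higher with the block, where 16.2% of all genes were lower and 17.1% higher. The median log2 fold change of the list was -0.20. Genes of the wider repair lists were not removed from it, and PCNA, UNG and CLSPN are among those counted in both. In the G2M list 13 of 53 tested genes were lower and 1 higher, with a median of -0.05. Without the block 0 genes of the S phase list and 1 of the G2M list were lower in edgeR, 12 and 7 were at an unadjusted p below 0.05, and 4 and 1 were with DESeq2. Of all genes 0.413%, 7.93% and 2.69% were lower in these 3 settings. With the block and the correction for GC content and length the lower genes numbered 30 and 26, and the medians were -0.24 and -0.12. In that fit 19% of all genes were lower, with a median of -0.01 over all genes. The S phase median was -0.16, -0.22 and -0.16 in the 3 pairs, where that of the members was -0.08, -0.14 and -0.16. The part of the cell cycle in the lower repair transcripts was not tested.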

How the data were processed

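RNA-seq of poly(A) RNA was analysed in 6 libraries of 22Rv1 cells, siCtrl (n = 3) and siMED12 (n = 3), grouped by the labels. The study states that its experiments had biological replicates, but the labels do not say which libraries came from separate cultures. P-values without the block therefore measure the spread between these samples. Those with the block measure only the spread left after differences between replicate numbers are removed. The deposited counts are raw reads per gene that the authors obtained with Rsubread and Gencode (GRCh38.p13) from strand-specific libraries. Handling of multi-mapping reads and of strand is not given in the sources used here. The deposited log2 CPM values of the authors, for 17901 genes, equal edgeR's TMM log2 CPM with a prior count of 2 to within 4.96e-09. Libraries held 16136699 to 17012788 counts, so counting error was alike in all.

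Genes were kept by edgeR's filter and tested with its quasi-likelihood test (edgeR 4.0.16, R 4.3.3), two-sided, with Benjamini-Hochberg adjustment over all genes and a threshold of 0.05, without a block, since the study's methods state none. One figure legend, however, mentions batch correction of this expression heatmap and does not say what the batch was, and the authors may therefore have fitted a block. Same-numbered libraries correlated in their deviations from the group means (0.532, 0.373 and 0.643, others -0.460 to -0.0233), so the numbers were taken as pairs, and fits that block on them are given. SEs were derived from the F statistic. Replicates were not duplicates (chi-square per degree of freedom 11.2 to 46.0). The fits were tested on simulated data. Coordinates, lengths and GC content came from Gencode release 44, for 17897 of the tested genes, and the correction used a loess trend (span 0.5) per library. Alternatives were DESeq2 1.42.0, limma 3.58.1 on the deposited log2 CPM, other scalings, filters and thresholds, protein-coding genes only, and leaving out libraries or pairs; DESeq2 and limma with the block, the stricter threshold with the block and the protein-coding background were chosen after seeing the data.

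The members and lists were chosen with earlier results of these data known. Values in every library were due for the 10 members with the largest absolute blocked log2 fold change and a mean of at least 1 CPM, because fewer than 10 passed the threshold with a log2 fold change of at least 0.25. In the wider lists up to 5 genes in each direction with a mean of at least 5 CPM were named, with 4 transcriptional kinases. Per-library values of BRCA1, PALB2, BRCA2, FANCD2, FANCI, PARP1, MSH6, XRCC5, XRCC6, PRKDC, FANCL, MRE11 and FANCA were added after they were seen. Results for some marker genes are not reported here.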

Additional observations from a re-analysis of the deposited data

How the results depend on the processing

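The count of lower members depended on the replicate block: 0 without it under every scaling, filter and test tried and whichever library was left out, 17 with it and 23 with the block and the correction for GC content and length. Higher members numbered 0 without the block and 1 with it, and 0 again with the correction, with the DESeq2 Wald test or at an adjusted p below 0.01 in the blocked fit. The blocked fit gave 14 lower members with the DESeq2 Wald test and 14 with library size only. Leaving out 1 pair in the blocked fit gave 11 to 16 lower and 0 to 1 higher members. Shares of all genes are not given for the blocked DESeq2 Wald test, blocked library size only or the fits without 1 pair. Counts from these fits therefore cannot be read as particular to the members or the wider genes. The member median of -0.13 became -0.21 with the correction and -0.0856 with library size only, and lay between -0.20 and -0.11 without 1 library. In the blocked fit library size only gave a member median of -0.0890, while the median of all genes moved from 0.02 to 0.06. With the correction the medians of role groups became -0.20 for the BRCA complexes, -0.18 for end sensing and resection, -0.23 for the checkpoint kinases and -0.0647 for mismatch repair. With library size only, end sensing and resection became -0.0303 without the block and -0.0358 with it, and end joining -0.15 in both fits. Without 1 library the medians spanned -0.30 to 0.18 for the BRCA complexes, -0.23 to -0.0526 for end sensing and resection, -0.18 to -0.0723 for the checkpoint kinases and -0.29 to -0.0806 for end joining. Without 1 pair in the blocked fit they spanned -0.12 to -0.0487 for the BRCA complexes, -0.15 to -0.0749 for end sensing and resection and -0.16 to -0.0237 for the Fanconi core complex. The wider repair genes counted 12 higher and 22 lower with the block, 9 and 35 with the correction added, 5 higher with the blocked DESeq2 Wald test and 6 to 8 higher without 1 pair. Without the block 1 wider gene was lower with DESeq2 size factors and 1 with limma-trend, and 3 each with the DESeq2 Wald test, with no filter beyond 1 count, with protein-coding genes only and with a minimum mean of 1 CPM. MED12 kept its direction and ranged from -1.90 to -1.45 without 1 library, and missed the threshold without siCtrl replicate 1, siCtrl replicate 2, siMED12 replicate 1 or siMED12 replicate 2. Without the block BARD1 ranged from -0.0383, without siMED12 replicate 1, to 0.53, without siCtrl replicate 1. Among the called or named members in the blocked fit, 20 alternatives over 10 members lost a call and 132 left it as it was. The cause of these differences was not tested. For 33 of the 40 members the siCtrl libraries differed by more than the fold change between groups.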
